A study of Mus musculus with 28 samples.

Results

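The blood transcriptome was described in the 7 nonirradiated mice, titled as normal replicates 1 to 7, out of 28 mice in the series. These 7 samples were chosen by their title alone and every one of them was used. All animals were female C57Bl6 mice 10 weeks of age. The nonirradiated mice received no exposure, and the remaining groups of 7 mice each received 50, 200 or 1000 cGy of total body irradiation and were bled 6 h later. Peripheral blood (PB) mononuclear cells (MNCs) were separated over Ficoll from each mouse, so a replicate is 1 animal and 1 array. Each array carried amplified RNA of 1 mouse in the Cy5 dye and a universal mouse reference RNA, a commercial pool of RNA from mouse cell lines, in the Cy3 dye. Every value is therefore the log2 ratio of blood over reference, in which 1 stands for a 2-fold higher and -1 for a 2-fold lower signal in blood.

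PB MNCs are mostly B and T lymphocytes in the mouse, with natural killer (NK) cells and monocytes. Most of these cells are out of the cell cycle, whereas the cell lines of a reference pool grow in culture. A gene that blood cells transcribe and cultured lines do not has a high ratio, and a gene of dividing, adherent or epithelial cells has a low one. A ratio gives no order of abundance between genes, since each gene is measured against its own signal in the reference. In a mixed sample, fewer cells of a type and less RNA per cell cannot be told apart. The dyes were never swapped, so a dye effect and a difference from the reference cannot be told apart either, and the reference's own spread is not in the errors.

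The 7 arrays correlated with each other at r = 0.921 to 0.967 over all probes (median 0.947). Between 39 and 215 of 16722 probes had no value on an array, with the most in replicate 2. The lowest ratio in the table, 0.01, occurred 188 times on 123 probes in these mice, from 14 times in replicate 1 to 41 times in replicate 2. Values at this limit have no order among themselves. Replicate 3 differed by more than 1 log2 unit from the median of the other 6 mice for 402 genes and replicate 7 for 245 genes, against 47 genes in replicate 4.

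The label of the samples as blood mononuclear cells was checked against 4 marker genes. These genes were not used to check the label as nonirradiated. Cd79b, which encodes the Ig-beta subunit of the antigen receptor on B cells, was measured at 4.12, 4.10, 4.33, 4.16, 4.18, 4.36 and 3.98 in replicates 1 to 7, a mean log2 ratio of 4.17 ± 0.134 (SD, n = 7) or 18.0-fold above the reference. Ms4a1, which encodes CD20 of B cells, lay between 3.94 and 4.34, with a mean of 4.10 ± 0.148 (SD, n = 7). Both B cell genes were above the reference in every mouse, with the lowest value of either at 3.94. Ptprcap, the CD45-associated protein of lymphocytes, had a mean log2 ratio of 3.05 ± 0.211 (SD, n = 7), and Itgb7, the integrin beta 7 chain of lymphocytes, 3.27 ± 0.123 (SD, n = 6), with no value in replicate 7. All 4 markers passed the test for a difference of at least 2-fold (limma, adjusted p from 6.15e-10 to 2.22e-08).

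**Figure D1:**
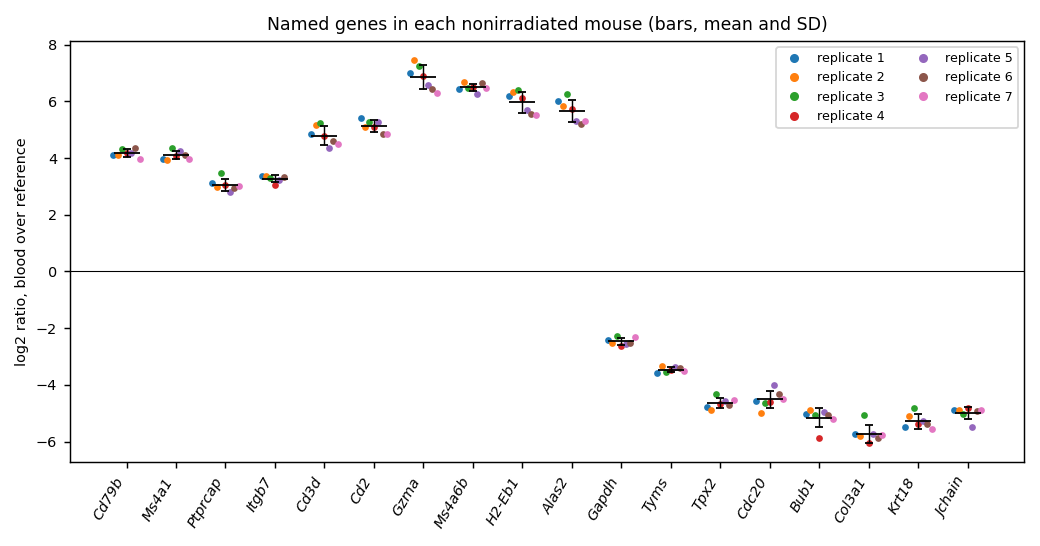
Log2 ratio of blood over reference (vertical axis) for 18 genes in each of the 7 nonirradiated mice, with 1 colour per mouse and black bars for the mean and SD. Markers of lymphocytes and other blood cells lie between 2.81 and 7.46. Gapdh, Jchain and the genes of dividing, fibroblast or epithelial cells lie between -2.29 and -6.06.

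Over all 9110 genes with at least 5 of 7 values, 1152 genes were at least 2-fold above the reference (12.6% of those tested) and 1601 were at least 2-fold below it (17.6%), by limma with a limit of 1 log2 unit and a Benjamini-Hochberg adjusted p under 0.05. The smallest mean that passed was 1.16 in size in either direction, and 861 further genes had a mean beyond 1 or -1 and did not pass. Against a ratio of 0 with no limit, 3639 genes were above (39.9%) and 4114 were below (45.2%). The median log2 ratio of all genes tested was -0.07. Counts for gene lists below are read against these shares. All 2753 genes called had their values on 1 side of the reference in every mouse.

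The 20 genes with the highest means ran from 5.49 for Il1b, the cytokine interleukin 1 beta, to 6.85 for Gzma. Ms4a6b, a transmembrane protein of the CD20 family, was measured at 6.43, 6.67, 6.48, 6.50, 6.27, 6.63 and 6.46, a mean of 6.49 ± 0.134 (SD, n = 7), and all mice were within a narrow range. Gimap6, a GTPase of lymphocytes, had a mean of 6.06 ± 0.246. Apoe, apolipoprotein E, a product of macrophages and liver, stood at 5.68 ± 0.395. Not all of the 20 are known as genes of blood cells. Helq, a DNA helicase, stood at 6.25, Trex2, an exonuclease of skin, at 6.24 and Gpr63, an orphan receptor, at 6.17. The olfactory receptors Olfr441 and Olfr857 stood at 6.35 and 5.63, the kallikrein Klk1b21 at 5.78 and Hbb-y, an embryonic globin, at 5.91 over 2 probes. Members of gene families as alike as globins, kallikreins, olfactory receptors, MHC genes and lysozymes may share signal on an oligonucleotide array, so the identity of such a gene is uncertain. Trex2 was also variable, with 3.64 in replicate 5 and 5.77 to 7.49 in the other mice.

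Lymphocyte genes were well represented. Of 15 B cell markers measured, 13 were at least 2-fold above the reference and 1 was below, and the median of the list was 4.10. Cd22, an inhibitory receptor of B cells, was measured at 5.09, 5.77, 5.24, 4.93, 4.85, 4.90 and 4.41, a mean of 5.03 ± 0.415 (SD, n = 7). Replicate 2 was the highest and replicate 7 the lowest, and every mouse was above 4. Ighm, the immunoglobulin M heavy chain, had a mean of 5.00 ± 0.407 (SD, n = 7), Fcrla, an Fc receptor-like protein of B cells, 4.75 ± 0.246, and the voltage-gated proton channel gene Hvcn1 4.73 ± 0.232. The exception was Jchain, the joining chain of secreted immunoglobulin M and A that marks antibody-secreting cells. Its values were -4.90, -4.88, -5.04, -4.82, -5.48, -4.93 and -4.90, a mean of -4.99 ± 0.224 (SD, n = 7) or 31.8-fold below the reference (adjusted p = 8.91e-10). Ighm and Jchain thus lay on opposite sides of the reference in all 7 mice. Ighm encodes both the membrane and the secreted heavy chain, which the gene symbol does not tell apart.

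Of 11 T cell markers, 9 were at least 2-fold above the reference and none below, with a median of 2.64. Cd2, an adhesion receptor of T and NK cells, had a mean of 5.13 ± 0.213 (SD, n = 7). Cd3d, a chain of the T cell receptor complex, was measured at 4.84, 5.18, 5.24, 4.76, 4.35, 4.60 and 4.48, a mean of 4.78 ± 0.338 (SD, n = 7). Cd3g, a sister chain of the same complex, stood at 4.01 ± 0.20, whereas Cd3e had a mean of 1.07 ± 0.117 and did not pass the limit of 2-fold. Chains of the same receptor complex thus had different ratios, each against its own signal in the reference. Of 9 NK and cytotoxic cell markers, 6 were above and none below. They were led by Gzma, the serine protease granzyme A, with the highest mean of all genes tested, 6.85 ± 0.426 (SD, n = 7) or 115.0-fold, and values from 6.30 in replicate 7 to 7.46 in replicate 2.

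Genes of membrane and signalling proteins shared by leukocytes were called in every case. All 34 measured members were at least 2-fold above the reference, with means from 1.45 for Unc93b1, which carries Toll-like receptors to endosomes and whose first probes had means of 1.88 and 0.68, to 4.96 for Cd52, a surface glycopeptide of lymphocytes. Stk17b, an apoptosis-related kinase of lymphocytes, was measured at 4.82 ± 0.095 (SD, n = 7) and Il10ra, the receptor chain for interleukin 10, at 4.74 ± 0.230. The mean of the whole list was 2.99 to 3.12 in the 7 mice. Of 7 genes of major histocompatibility complex (MHC) class II presentation, 6 were above the reference. H2-Eb1, a class II beta chain, was measured at 6.18, 6.33, 6.39, 6.1, 5.70, 5.54 and 5.52, a mean of 5.97 ± 0.373 (SD, n = 7). H2-Aa, a class II alpha chain, had a mean of 4.67 ± 0.429, and Ciita, the master coactivator of the class II genes, 1.60 ± 0.474. Ifi30, a thiol reductase of the same pathway, had a mean of 0.63 and did not pass. MHC class I genes were called in 10 of 18 cases, none of them below. The median was 1.72, and B2m, the light chain, had a mean of 3.06 ± 0.181 (SD, n = 7).

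The list of quiescence and lymphocyte maintenance factors was above the reference in 15 of 22 cases and below in none (median 2.36). S1pr1, the receptor by which lymphocytes leave lymphoid organs, had a mean of 5.15 ± 0.280 (SD, n = 7), and Tsc22d3, a glucocorticoid-induced leucine zipper protein, 4.75 ± 0.119. Slfn2, a schlafen protein that keeps T cells quiescent, stood at 4.19 ± 0.341 and Btg1, an antiproliferative factor, at 3.64 ± 0.336. Chemokine receptors were called above in 4 of 8 cases: Ccr7 4.97, Ccrl2 3.24, Cxcr4 3.01 and Ccr3 1.91. Ccr7 guides lymphocytes to lymph nodes and Cxcr4 retains cells in the marrow. Of 12 integrins, selectins and their ligands, 9 were above, led by Itga2b of platelets at 4.53 and Selplg, the ligand of P-selectin, at 3.51.

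Genes that are induced within minutes of stimulation were also high. Of 26 immediate early genes, 14 were at least 2-fold above the reference and 3 below. Cd69, an early activation antigen, was measured at 6.02, 6.44, 5.90, 5.67, 5.80, 5.87 and 6.13, a mean of 5.98 ± 0.253 (SD, n = 7). Dusp2, a phosphatase of activated leukocytes, had a mean of 4.57 ± 0.215 and Rgs1, a regulator of chemokine receptor signalling, 4.55 ± 0.272. The 3 genes below were Fosl1 at -3.90, Ier3 at -2.73 and Egr1 at -2.20. Among 19 inflammatory cytokines and NF-kB targets, 9 were above and 2 below. Cxcl2 stood at 6.00 ± 0.814 (SD, n = 7) and Cxcl1 at -5.42 ± 0.787, although both encode neutrophil-attracting chemokines. The values of Cxcl2 ran from 4.96 to 7.33 and those of Cxcl1 from -6.39 to -4.24, so they did not overlap. Of 41 interferon-stimulated genes, 15 were above and 2 below (median 0.71), with Rsad2, an antiviral enzyme, the highest at 5.23.

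Markers of red cells, platelets and myeloid cells were called in part. Of 12 erythroid markers, 6 were above the reference and none below, led by Bpgm, the red cell enzyme that makes 2,3-bisphosphoglycerate, at 5.67 and Alas2, the first enzyme of haem synthesis in red cells, at 5.66. Of 11 platelet and megakaryocyte markers, 8 were above and none below. Clec1b, the podoplanin receptor of platelets, had a mean of 5.93 ± 0.751 (SD, n = 7) and Ppbp, a platelet chemokine, 4.73 ± 0.719. Of 7 neutrophil markers, 2 were above. These were S100a9 at 6.12 ± 0.453 (SD, n = 7) and S100a8 at 5.75 ± 0.948, the calprotectin subunits of neutrophils and monocytes. Ngp, Mmp9, Ly6g, Lcn2 and Bst1 had means from -0.27 to 1.15 and did not pass. Of 16 monocyte and macrophage markers, 9 were above and 1 below. Lyz2, lysozyme of myeloid cells, stood at 4.04 ± 0.380 (SD, n = 7) and Csf1r, the receptor of macrophage colony stimulating factor, at 1.29 ± 0.426, which did not pass. Cd68, an endosomal protein of macrophages, was below the reference at -1.46 ± 0.237.

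**Figure D2:**
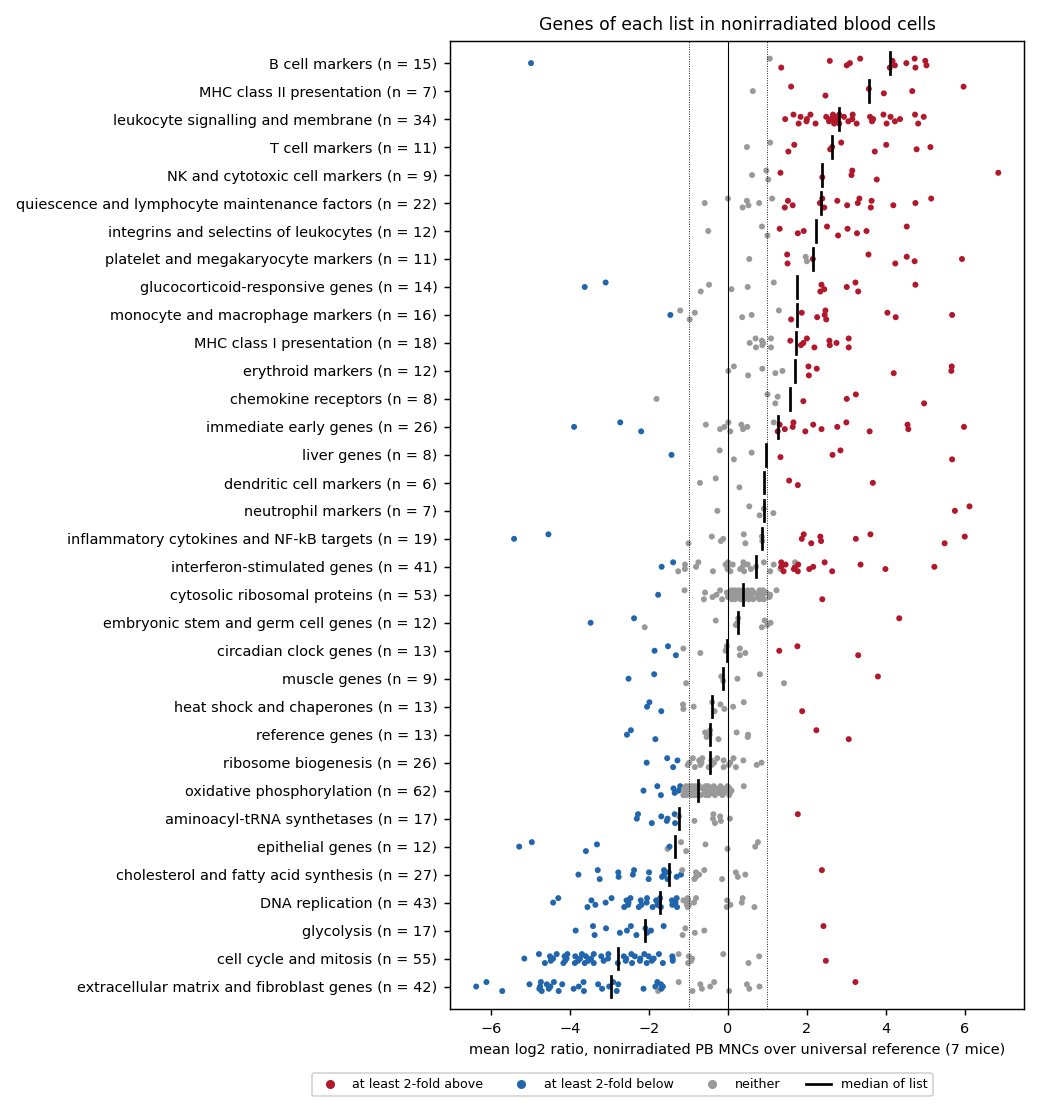
Mean log2 ratio over the 7 nonirradiated mice (horizontal axis) of every measured member of 34 gene lists, ordered by the list median (black bar). Red points are at least 2-fold above the reference, blue points at least 2-fold below, grey points neither, and dotted lines mark 1 and -1. All 34 leukocyte signalling genes are red, whereas 46 of 55 cell cycle genes and 30 of 42 matrix genes are blue.

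Genes of cell division were far below the reference. Of 55 cell cycle and mitosis genes, 46 were at least 2-fold below the reference and 1 above, with a median of -2.79. Bub1, a kinase of the spindle checkpoint, was measured at -5.04, -4.90, -5.06, -5.87, -4.96, -5.07 and -5.21, a mean of -5.16 ± 0.330 (SD, n = 7) or 35.8-fold below the reference. Kif2c, a kinesin that depolymerizes microtubules, had a mean of -4.79 ± 0.503 and Tpx2, a spindle assembly factor, -4.64 ± 0.183. Cdc20, the activator of the anaphase-promoting complex, was measured at -4.57, -4.99, -4.63, -4.59, -4.00, -4.31 and -4.49, a mean of -4.51 ± 0.303. Every mouse was at -4.00 or lower for Bub1, Kif2c, Tpx2 and Cdc20, and the lowest value was that of replicate 4 for Bub1. The gene above was Cdk2, the cyclin-dependent kinase of the G1/S transition, at 2.48 ± 0.283 over 2 probes, with values from 2.17 to 2.93. Its probes disagreed, with means of 4.45 and 0.50, so the value above the reference came from 1 probe. Cdc25b, Pttg1 and Aurkb had means of 0.79, 0.52 and -0.12 and did not pass.

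DNA replication genes were below the reference in 28 of 43 cases and above in none, with a median of -1.72. Gins2, a subunit of the replicative helicase, had a mean of -4.43 ± 0.456 (SD, n = 7) and Rrm2, the small subunit of ribonucleotide reductase, -4.30 ± 0.979. The mean of Rrm2 includes a value at the lowest ratio. Tyms, thymidylate synthase, was measured at -3.59, -3.34, -3.54, -3.47, -3.36, -3.42 and -3.51, a mean of -3.46 ± 0.093 (SD, n = 7), which was the narrowest spread among the genes named from this list. Pold3, Pold1, Mcm2 and Cdt1 had means between 0.06 and 0.67 and did not pass.

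The promoters of these groups are shown for genes of the lists at either end, since these lists differed in how often their promoters held certain motifs. Promoters were taken from RefSeq (GRCm38.p6) as 250 bases before to 50 bases after the transcription start, 5′ to 3′ on the gene's strand, and 7425 of the 9110 genes tested had one. Exact matches were sought on both strands for CCAAT, the core of the NF-Y binding sequence, TTTGAA, the core of the cell cycle genes homology region, and AGGAAG, a sequence recognized by ETS family factors. AGATAA, recognized by GATA factors, ATTTGCAT, the octamer, and TGACTCA, an AP-1 sequence, were also sought. Capitals mark the matches to the NF-Y, cell cycle and ETS motifs, none of which share bases with another. The GATA motif was also matched in the H2-Eb1 promoter, where it is left in lower case. On the other strand CCAAT reads as ATTGG while TTTGAA reads as TTCAAA and AGGAAG reads as CTTCCT.
Cdc20, chr4:118437294-118437593, minus strand: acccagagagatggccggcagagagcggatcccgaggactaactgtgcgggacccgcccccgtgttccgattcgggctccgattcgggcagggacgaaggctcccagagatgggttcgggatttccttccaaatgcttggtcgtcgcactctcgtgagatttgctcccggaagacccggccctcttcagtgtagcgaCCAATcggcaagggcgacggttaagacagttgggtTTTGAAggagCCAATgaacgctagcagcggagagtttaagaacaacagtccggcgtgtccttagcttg
Bub1, chr2:127831810-127832109, minus strand: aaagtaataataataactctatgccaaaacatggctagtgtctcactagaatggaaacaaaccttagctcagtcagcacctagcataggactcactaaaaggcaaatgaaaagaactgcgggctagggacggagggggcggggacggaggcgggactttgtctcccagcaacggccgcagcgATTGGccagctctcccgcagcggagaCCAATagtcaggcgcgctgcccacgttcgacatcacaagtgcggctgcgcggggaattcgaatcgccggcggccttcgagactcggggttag
Kif2c, chr4:117178723-117179022, minus strand: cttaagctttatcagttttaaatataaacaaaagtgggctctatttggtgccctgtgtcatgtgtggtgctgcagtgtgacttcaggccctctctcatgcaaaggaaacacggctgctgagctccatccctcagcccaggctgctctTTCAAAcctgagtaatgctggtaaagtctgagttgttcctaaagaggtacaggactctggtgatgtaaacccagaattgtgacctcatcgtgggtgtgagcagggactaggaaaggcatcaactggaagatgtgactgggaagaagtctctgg
H2-Eb1, chr17:34305617-34305916, plus strand: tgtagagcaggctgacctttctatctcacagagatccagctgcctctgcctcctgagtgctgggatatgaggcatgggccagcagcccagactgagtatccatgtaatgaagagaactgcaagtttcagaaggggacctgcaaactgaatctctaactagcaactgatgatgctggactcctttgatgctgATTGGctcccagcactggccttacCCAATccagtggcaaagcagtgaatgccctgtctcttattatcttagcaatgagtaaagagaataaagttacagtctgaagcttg
Cd37, chr7:45238790-45239089, minus strand: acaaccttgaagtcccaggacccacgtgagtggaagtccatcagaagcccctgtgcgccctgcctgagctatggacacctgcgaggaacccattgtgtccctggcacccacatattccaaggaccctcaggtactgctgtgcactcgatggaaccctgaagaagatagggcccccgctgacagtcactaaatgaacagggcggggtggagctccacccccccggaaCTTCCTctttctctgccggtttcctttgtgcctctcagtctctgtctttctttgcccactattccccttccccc
Itga2b, chr11:102469834-102470133, minus strand: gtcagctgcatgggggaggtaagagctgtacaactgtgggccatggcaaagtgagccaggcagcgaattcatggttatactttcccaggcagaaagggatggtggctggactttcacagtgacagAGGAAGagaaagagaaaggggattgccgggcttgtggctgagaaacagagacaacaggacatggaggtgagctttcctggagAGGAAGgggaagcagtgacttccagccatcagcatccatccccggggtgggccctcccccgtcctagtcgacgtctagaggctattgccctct

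CCAAT was found in 32 of 47 cell cycle promoters (68.1%) and 22 of 36 DNA replication promoters (61.1%), against 38.4% of all tested genes with a promoter and 37.9% of all 27025 promoters in the table. Cdc20 carried it at positions -53 and -8 from the start and Bub1 at -68 and -42. TTTGAA was found in 28 of 47 cell cycle promoters (59.6%), against 13% of tested genes and 18.1% of all promoters, and in 11.1% of DNA replication promoters. It stood at -18 in Cdc20 and at -103 in Kif2c, and was not matched in this window of Bub1. CCAAT was not matched in that of Kif2c. AGGAAG was found in 17 of 27 promoters of the leukocyte signalling list (63.0%), against 32.5% of tested genes and 35.1% of all promoters. It was also found in 17 of 30 promoters (56.7%) of the extracellular matrix list, which lay far below the reference. Cd37, a tetraspanin of leukocytes with a mean log2 ratio of 4.23 ± 0.209 (SD, n = 7), carried it at -24. Cd37 was picked from the list for display because its promoter held the motif. Itga2b carried it at -125 and -43. H2-Eb1 carried CCAAT at -59 and -35, although the share among the MHC class II promoters was 2 of 5 (40.0%), close to that of tested genes. Over all genes at least 2-fold above the reference the share with AGGAAG was 39.8%, and over those below it was 30.3%. AGATAA was found in 4 of 9 erythroid promoters (44.4%) and 3 of 9 platelet promoters (33.3%), against 7.12% of tested genes and 11.4% of all promoters. ATTTGCAT was found in 2 of 11 B cell promoters, against 1.37% and 1.75%. TGACTCA was found in 3 of 30 matrix promoters, against 4.01% and 5.17%. A match is a description of the sequence and was not tested.

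Genes of adherent cells were the other group far below the reference. Of 42 extracellular matrix and fibroblast genes, 30 were below and 1 above, with a median of -2.96. Lox, the lysyl oxidase that cross-links collagen, had a mean of -6.38, with a value at the lowest ratio in 1 or more mice, so its order among the lowest genes is not known. Col3a1, a fibrillar collagen, was measured at -5.73, -5.79, -5.05, -6.06, -5.74, -5.86 and -5.78, a mean of -5.72 ± 0.315 (SD, n = 7). Pdgfra, the platelet-derived growth factor receptor alpha of mesenchymal cells, had a mean of -5.86 ± 0.242. Replicate 3 was the highest mouse for Col3a1 and no mouse was above -5.05 for Col3a1 or above -5.64 for Pdgfra. The gene above was Tgfbi, a matrix protein also made by monocytes, at 3.23 ± 0.704. Among 12 epithelial genes, 5 were below and none above, with the keratins Krt18 at -5.29 and Krt8 at -4.97 the lowest. Ifi202b, an interferon-inducible DNA sensor, had a mean of -6.40 and a value at the lowest ratio in 1 or more mice, so neither its rank nor its spread is measured. Of the 20 lowest genes by mean, 4 had a value at the lowest ratio.

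Lists of metabolism and growth differed in how many members were below the reference. Of 17 glycolysis genes, 12 were below and 1 above. Tpi1, triosephosphate isomerase, had a mean of -3.86 ± 0.257 (SD, n = 7), Eno2 -3.42 ± 0.182 and Pgam1 -3.38 ± 0.108, all enzymes of the pathway. The gene above was Slc2a3, a glucose transporter of leukocytes and platelets, at 2.42 ± 0.433. Of 27 genes of cholesterol and fatty acid synthesis, 16 were below, such as Scd2 at -3.79 and the malic enzyme gene Me1 at -3.30 (probe means -4.74 and -1.86), and 1 was above. That gene was Scd1, a stearoyl-CoA desaturase like Scd2, measured at 2.28, 2.99, 2.56, 2.43, 2.27, 2.27 and 1.88, a mean of 2.38 ± 0.340. The values of Scd2 ran from -4.26 to -3.32, so these related enzymes lay on opposite sides of the reference in every mouse. Aminoacyl-tRNA synthetases were below in 8 of 17 cases and above in 1, Farsb at 1.77. Oxidative phosphorylation genes were below in 7 of 62 cases and above in none, with a median of -0.76 and a highest mean of 0.40 for Atp5e.

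Some lists lay near the reference. The 53 cytosolic ribosomal protein genes had a median of 0.37, and only Rps27 at 2.39 and Rpl22 at -1.77 passed the limit. The median SD of this list was 0.109, against 0.233 for all genes tested. Circadian clock genes had a median of -0.03, with Per1 at 3.30 ± 0.133 (SD, n = 7) and Nr1d1 at -1.86 ± 0.516 at the extremes. Per1 encodes a repressor of the clock and also responds to glucocorticoids. Genes that are often used to scale expression values differed widely. Actb, beta actin, stood at 2.24 ± 0.314 and Gapdh, the glycolytic dehydrogenase, at -2.46 ± 0.128 over 10 probes. Actb lay between 1.63 and 2.57 in the 7 mice and Gapdh between -2.63 and -2.29, while Rplp0, a ribosomal stalk protein, had a mean of 0.22 ± 0.112.

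Variation between the 7 mice was described as the SD of the log2 ratio over the 8855 genes with 7 values on every averaged probe. The median SD was 0.231, and the 5th and 95th percentiles were 0.097 and 0.624. An SD over 0.5 was found for 885 genes (9.99%), an SD over 1 for 64, and an SD under 0.1 for 494 (5.58%). The 50 genes with the largest SD were taken as the most variable. The gene ranked 50 had an SD of 1.063 and the next gene 1.058, and the values that chose these genes carry no test. The least variable genes were Nsa2, a ribosome biogenesis factor (SD 0.030), Baz1a, a chromatin remodelling subunit (SD 0.036), and Usp8, a deubiquitinase (SD 0.040). Nsa2 and Baz1a are averages of 3 and 2 probes, and the probes of Baz1a had SDs of 0.10 and 0.132 and moved apart (r = -0.837), so such averages do not rank with Usp8, which has 1 probe.

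The top of this ranking was set by single values at the lowest ratio. Of the 50 genes, 23 had such a value, 15 of them in replicate 2. Prodh, the mitochondrial proline dehydrogenase, was measured at -0.22, -6.48, 0.91, -0.04, 0.07, 0.10 and -0.39, an SD of 2.51. Only replicate 2 stood apart, and the same held for Crim1, Grhl2, Stk38l and Ppif, the next genes in the ranking, whose values in replicate 2 were all -6.48. The genes with the profile most like that of Prodh over the 7 mice were Chtop (r = 0.997), Ccr8 (r = 0.989) and Grhl2 (r = 0.984), all low in replicate 2. Chtop is an average of 2 probes that did not move together (r = -0.076), with SDs of 2.449 and 0.192, so its profile came from 1 probe. Replicate 2 also had the most missing values, and the part of low signal in these values was not tested. With the lowest ratio taken as missing, 27 of the 50 genes remained among the 50 most variable of 8827 genes, and the largest SD was 1.557. The genes of that ranking are described next.

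**Figure D3:**
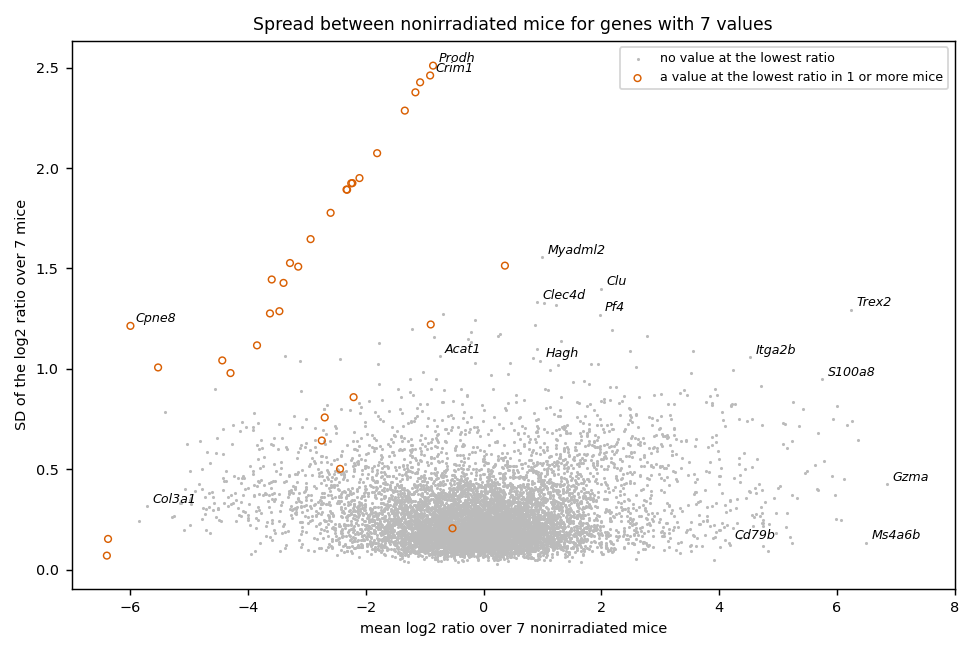
Mean log2 ratio (horizontal axis) against the SD over the 7 nonirradiated mice (vertical axis) for 8855 genes, 1 point per gene. Orange circles are genes with a value at the lowest ratio in at least 1 mouse, and they form the top of the plot up to the SD of 2.51 of Prodh. Myadml2, Clu and Clec4d lead the other genes, and Ms4a6b has a mean of 6.49 with an SD of 0.134.

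In 33 of those 50 genes the mouse farthest from the others was replicate 7, which was lower for 19 genes and higher for 14. The genes lower in replicate 7 included those of platelets. Clu, clusterin, stored in platelet granules, was measured at 3.02, 2.68, 1.66, 1.83, 2.48, 3.21 and -0.90, a mean of 2.00 ± 1.40 (SD, n = 7). Pf4, platelet factor 4, was measured at 2.99, 2.65, 1.64, 1.87, 2.59, 2.73 and -0.69, a mean of 1.97 ± 1.27. Neither mean passed the limit of 2-fold (adjusted p = 0.0775 and 0.0607 by limma). Replicate 7 was the only mouse below 0 for Clu and Pf4, and the lowest of the other 6 mice was 1.64. Itga2b, the integrin chain of the platelet fibrinogen receptor, stood at 2.26 in replicate 7 and at 4.43 to 5.33 in the others. Gp5, a subunit of the platelet receptor for von Willebrand factor, stood at 1.58 against 3.29 to 4.81, and Treml1, a receptor of platelet granules, at 2.42 against 3.76 to 5.15. The genes most like Clu over the 7 mice were Myl9 (r = 0.992), a myosin light chain, Pf4 (r = 0.991) and Pros1 (r = 0.989), protein S of the coagulation system. Of 11 platelet markers, 9 were lowest in replicate 7, against 15.1% of all genes with 7 values, and 1 was highest, against 13.3%.

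Among the genes higher in replicate 7 were several known from myeloid cells. Clec4d, a C-type lectin of myeloid cells, was measured at 0.82, 0.80, -0.22, -0.09, 0.50, 0.72 and 3.76, a mean of 0.90 ± 1.33 (SD, n = 7). Acod1, the enzyme that makes itaconate in activated macrophages, was measured at 0.92, 0.76, -0.19, 0.17, 1.06, 0.64 and 3.88, a mean of 1.03 ± 1.33. Replicate 7 stood above the other 6 mice for both genes, and none of those was above 1.06. Trem1, a receptor that amplifies inflammation, stood at 5.07 in replicate 7 and at 1.82 to 3.52 in the others, and Cd14, the coreceptor of lipopolysaccharide, at 1.38 against -1.96 to 0.01. Slfn4, a schlafen protein of myeloid cells, stood at 3.52 against -0.12 to 1.00, and Mmp9, gelatinase B of neutrophils, at 3.03 against -0.47 to 1.33. Of 7 neutrophil markers, 6 were highest in replicate 7, and of 19 inflammatory cytokines and NF-kB targets 13 were, against 13.3% of all genes. The mean of the neutrophil list was 3.55 in replicate 7 and 1.53 to 2.21 in the other mice, and that of the platelet list 1.53 against 2.72 to 3.65. The monocyte list did not separate this mouse, with a mean of 1.72 in replicate 7 and 1.22 to 2.17 in the others. The means of the B cell list (2.74) and the MHC class II list (2.90) were the lowest of the 7 mice in replicate 7, in which 8 of 15 B cell markers and 4 of 7 class II genes had their lowest value.

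A further set of genes was high in replicate 3, and erythroid markers were only part of it. In the same ranking of 50 genes, replicate 3 was farthest from the others for 8 genes and higher for each. These were Myadml2, Hagh, Csn2, Ctse, Dpm1, Nusap1, Isg15 and Arhgap8, most of them named after their values were seen. None of them is in the list of erythroid markers. Myadml2, a myeloid-associated differentiation marker-like protein, had the largest SD once the lowest ratio was taken as missing, and was measured at 0.57, -0.12, 3.95, 0.04, 0.14, 2.33 and 0.02, with replicates 3 and 6 apart from the rest. Hagh, chosen after its values were seen, a glyoxalase abundant in red cells, stood at 3.19 in replicate 3 and at 0.12 to 1.10 in the others. Among erythroid markers, Slc25a37, the mitochondrial iron importer of erythroblasts, was measured at 2.44, 1.93, 4.05, 2.04, 1.36, 1.42 and 2.54, a mean of 2.25 ± 0.910 (SD, n = 7). Fech, ferrochelatase, which inserts iron into haem, stood at 5.81 in replicate 3 and at 3.32 to 4.58 in the others. Of 11 erythroid markers with 7 values, 10 were highest in replicate 3, against 25.4% of all genes, and the mean of the list was 3.38 in replicate 3 and 1.64 to 2.48 in the other mice. Replicate 3 was also highest for 6 of 10 embryonic stem and germ cell genes, 8 of 15 B cell markers and 21 of 50 cell cycle genes. Its array had the largest SD over probes of the 7 (1.58) and the lowest array weight (0.551), and their part in the erythroid values was not tested. The lists of B and T cell markers spanned 2.74 to 3.39 and 2.63 to 2.93 over the 7 mice.

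**Figure D4:**
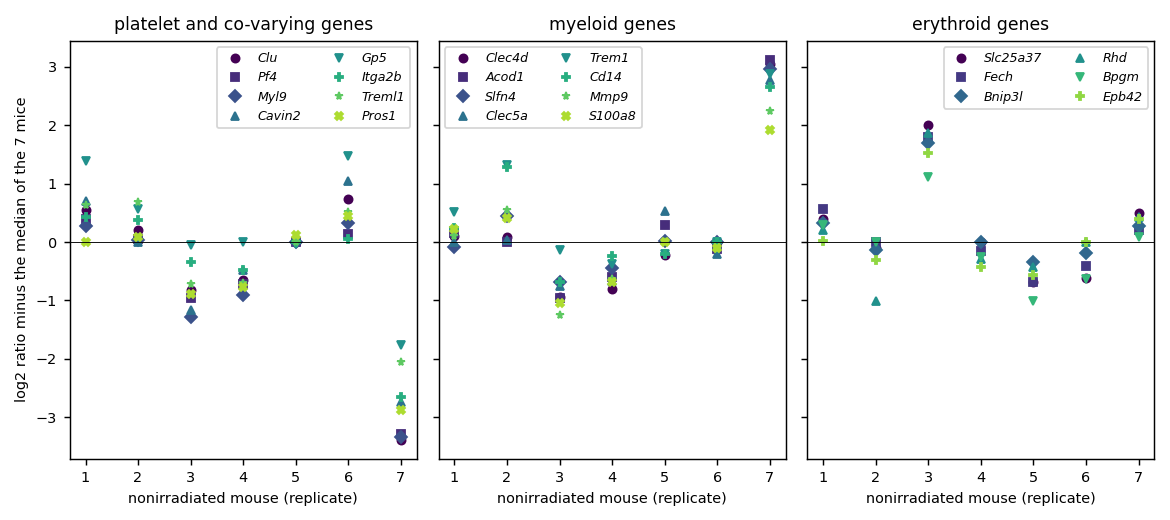
Log2 ratio minus the median of the 7 mice (vertical axis) for genes of platelets and genes with like profiles, myeloid genes and erythroid genes in each nonirradiated mouse (horizontal axis), 1 symbol per gene. Replicate 7 is lowest for the first set, with Clu at -0.90 before the median is taken off, and highest for the second, and replicate 3 is highest for the third. Genes of the first and second sets are all among the most variable genes with the lowest ratio taken as missing. The place of replicate 7 thus follows in part from their choice.

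A principal component decomposition of the same genes placed these mice on separate axes. The first component held 35.3% of the variance, with replicate 3 at one end (score 33.6) and replicate 5 at the other (score -18.1). The genes that rose most toward replicate 3 were Csn2, Trex2, Hagh, Myadml2 and Dpm1, with the erythroid markers Slc25a37 and Fech further down. The second held 20.3% and separated replicate 7 (score 30.6) from the other mice (scores -7.3 to -2.3). The third held 15.8% and separated replicate 2 (score 26.1). Acat1 and Got2 are named for replicate 2 after their values were seen. Acat1, a mitochondrial thiolase, was 1.65 in replicate 2 and -1.30 to -1.02 in the others. Got2, mitochondrial aspartate aminotransferase, was 1.09 in replicate 2 and -1.70 to -0.94 in the others. Tyrobp, a signalling adaptor of myeloid and NK cells, was 3.90 in replicate 2 and 3.35 in replicate 7, above 1.78 to 2.20 in the rest.

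A second probe gave a measure of how far such differences repeated within an array. For 1272 genes with at least 2 complete probes, the median correlation of the first 2 probes over the 7 mice was r = 0.262. Among the 100 of these genes whose probe average had an SD over 0.4 the median was 0.750. Among the 387 whose average had an SD under 0.15 it was -0.063. Probes that move together give their average a larger SD, so part of this difference is fixed by the split itself. These are correlations over 7 mice within each gene, and the probes share the array and its RNA. For 26 genes the 2 probes were past 2-fold on opposite sides of the reference, so the mean of a gene can hide probes that disagree.

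The spread and the levels were then set beside the irradiated groups, whose comparisons all share the 7 nonirradiated arrays. The median SD of the 8855 genes was 0.231 in nonirradiated mice and 0.160, 0.227 and 0.278 in the groups given 50, 200 and 1000 cGy. Measured on the 50 cGy arrays alone, 1187 of 9130 genes were at least 2-fold above the reference (13%) and 1735 below (19%). The 200 cGy arrays gave 1414 of 9128 above (15.5%) and 1736 below (19%), and the 1000 cGy arrays 1796 of 9102 above (19.7%) and 1632 below (17.9%). Against nonirradiated mice, 728 of 9076 genes were higher in the 50 cGy group (8.02%) and 352 lower (3.88%). In the 200 cGy group 2106 were higher (23.2%) and 1843 lower (20.3%), and in the 1000 cGy group 3702 were higher (40.8%) and 2353 lower (25.9%). The balance of higher and lower genes depended on scaling. When arrays were left uncentred, 1589 genes were higher and 2295 lower in mice given 200 cGy, and 2338 were higher and 3379 lower in mice given 1000 cGy. Quantile normalization gave 2661 higher and 2683 lower genes for the 1000 cGy group.

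Genes that were high in nonirradiated blood differed in their levels after irradiation. Cd79b had means of 3.77, 1.76 and -1.13 in the 50, 200 and 1000 cGy groups, and fell by 5.30 on the log2 scale at the highest dose (SE 0.111, adjusted p = 3.4e-24). In the B cell list 1, 12 and 13 of 15 members were lower than in nonirradiated mice at 50, 200 and 1000 cGy. Of all genes, 3.88%, 20.3% and 25.9% were lower at these doses. Scd1 fell by 5.44 at 1000 cGy (SE 0.186, adjusted p = 3.37e-19). Ms4a6b had means of 6.69, 6.75 and 6.70 after irradiation, with adjusted p from 0.158 to 0.408. Gzma rose by 1.11 at 1000 cGy (SE 0.291, adjusted p = 0.00162). Of the 55 cell cycle genes, 3 were higher and none lower at 50 cGy, 5 higher and 8 lower at 200 cGy, and 25 higher and 8 lower at 1000 cGy. The shares of all genes that were higher at these doses were 8.02%, 23.2% and 40.8%, so the count at 1000 cGy lay near that of all genes. The means of Bub1 in these groups were -4.87, -4.69 and -4.81 and those of Cdc20 -4.47, -4.53 and -4.26, and neither passed the test at any dose (adjusted p from 0.0712 to 0.920).

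The platelet and neutrophil lists, in which replicate 7 stood apart, also differed by dose. At 50 cGy 5 of 11 platelet markers were higher and none of the 7 neutrophil markers. All 11 platelet markers were higher at 200 and at 1000 cGy, and all 7 neutrophil markers likewise. Of all genes, 8.02%, 23.2% and 40.8% were higher at 50, 200 and 1000 cGy. The platelet list mean of replicate 7, 1.53, was lower than in every irradiated mouse. Irradiated mice spanned 3.30 to 4.12 at 50 cGy, 3.83 to 4.86 at 200 cGy and 4.72 to 6.15 at 1000 cGy. Nonirradiated replicates 3, 4 and 5, at 2.76, 2.72 and 3.02, were also below all of them. The neutrophil list mean of replicate 7, 3.55, was above the mice given 50 cGy (1.77 to 2.22) and below those given 200 cGy (4.12 to 5.06). Its B cell list mean, 2.74, was above all mice given 200 cGy (1.38 to 1.90), as were those of all nonirradiated mice (2.74 to 3.39). Without replicate 7 the numbers of genes higher and lower than nonirradiated mice at 200 cGy were 2039 and 1775. Leaving out replicate 3 had the larger effect at 50 cGy, where the number of genes lower than nonirradiated mice went from 352 to 219.

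**Figure D5:**
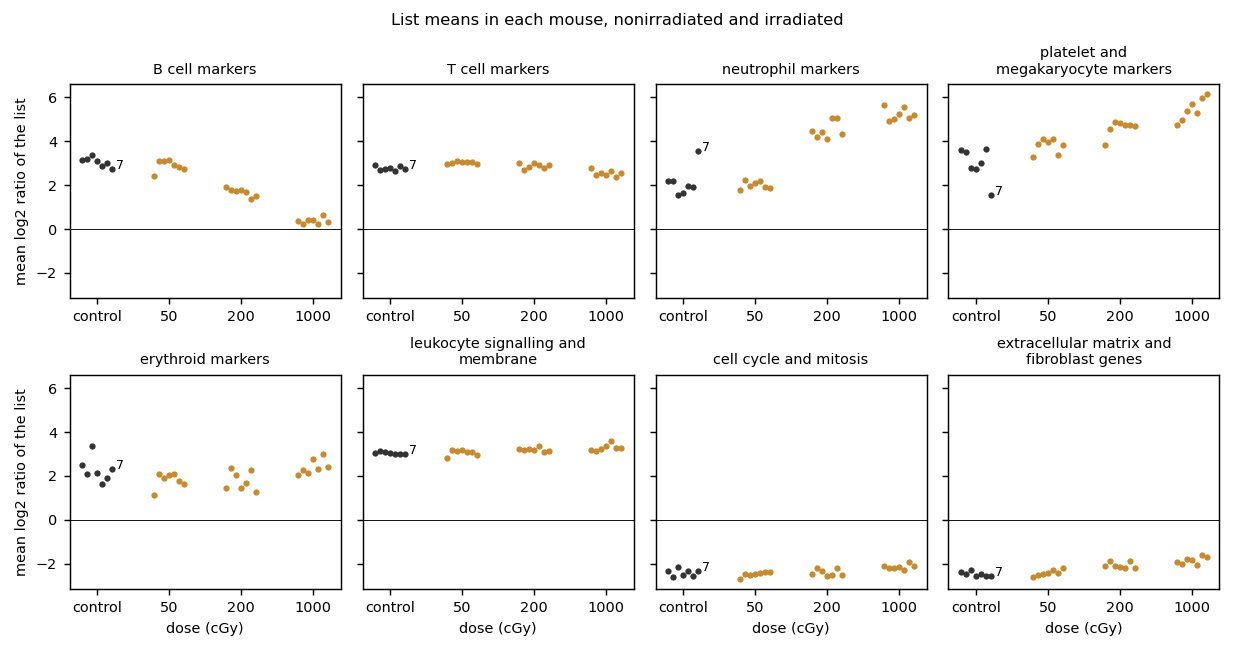
Mean log2 ratio of the members of 8 gene lists (vertical axis) in each mouse, by dose in cGy (horizontal axis), 1 point per mouse, with nonirradiated mice in black and replicate 7 marked. In nonirradiated mice the leukocyte signalling list spans 2.99 to 3.12 and the platelet list 1.53 to 3.65, with replicate 7 the lowest.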

How the data were processed

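PB MNC RNA of 7 nonirradiated and 21 irradiated mice was hybridised with a common reference on arrays of spotted oligonucleotides. Per the methods of the study, spots of signal under 100 in either channel were removed, so genes low in blood or in the reference are missing. The authors deposited a log2 ratio of sample over reference for 16722 probes on 28 arrays. The sources used here name no normalization between arrays, and without intensities the depth of signal is unknown. The dye name in the labels of 6 samples is not Cy5 or Cy3, and direction was taken from the methods. Of the probes, 10820 carried 1 gene symbol, 232 several and 5670 none in the platform annotation, and only the first were used for genes.

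Each array was centred on its median, probes with at least 5 of 7 nonirradiated values were kept, and probes of 1 gene were averaged. Differences from the reference of at least 2-fold were tested with limma 3.58.1 (treat, log2 limit 1) in R 4.3.3, two-sided, with Benjamini-Hochberg adjusted p under 0.05. Doses were compared with nonirradiated mice in a limma fit of 4 group means over 28 arrays. Scripts were tested on simulated data. Genes were named as the 20 highest and 20 lowest called with 7 values, the 20 most variable, the 5 least variable, up to 4 at each end of each list and any cell type marker, plus their most alike genes. The members and the 34 lists, of which 712 of 1018 genes were measured, were chosen with earlier results of these data known. Promoters came from RefSeq (GRCm38.p6). Centring, weights, variance, limits, probe handling, the lowest ratio, left-out mice and a replicate block were tried as alternatives.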

Additional observations from a re-analysis of the deposited data

Results flagged for a closer look

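Of 170 values tested over the 7 nonirradiated mice (133 genes, 34 list means and measures of the arrays), 36 had 1 mouse whose gap to the nearest other divided by the range exceeded Dixon's critical value for 7 samples. Chance gives about 1 such value in 20 sets, and many of these genes were named for their spread, so the count is a description. Replicate 7 held 15 of them, replicate 2 held 13, replicate 5 held 4, replicate 3 held 3 and replicate 4 held 1.

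Replicate 7 was the highest mouse for Acod1 (3.88), Clec4d (3.76), Slfn4 (3.52), Lcn2 (2.43), Bst1 (2.06), Ly6g (1.86), Selplg (3.93), Rps27 (2.78) and Ier3 (-1.25), and for the mean of the neutrophil list (3.55). It was the lowest mouse for Clu (-0.90), Pf4 (-0.69), Itga2b (2.26), Ppbp (3.19) and Pros1 (-2.53). The number of genes at least 2-fold above and below the reference was 1130 and 1515 without this mouse.

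Replicate 2 was the lowest mouse at -6.48 for Ccr8, Crim1, Grhl2, Ppif, Prodh, Rrm2 and Stk38l, each a value at the lowest ratio. It was also the lowest for Chtop at -3.64, an average of 2 probes of which 1 varied widely (SDs of 2.449 and 0.192). It was the highest for Acat1 (1.65), Got2 (1.09) and Btg1 (4.36) and for the mean of the quiescence list (2.45), and its array lacked a value for the most probes (215).

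Replicate 3 was the highest mouse for Col3a1 (-5.05), Hagh (3.19) and Pttg1 (0.99). Replicate 4 was the lowest for Bub1 (-5.87). Replicate 5 was the lowest for Jchain (-5.48) and Atp5e (0.16) and the highest for Pold1 (0.94) and for the mean of the reference genes (-0.11).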

How the results depend on the processing

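The calls against the reference were stable to most settings. Of the 2753 genes called, 2702 were also called in a fit of all 28 arrays, 2737 after quantile normalization, 2718 with array weights and 2562 to 2634 with 1 mouse left out. Without centring, which moved the median of all genes from -0.07 to -0.26, 2553 were shared and the counts above and below were 952 and 1944. Probes tested singly gave 2068 above and 2643 below, with unnamed probes and several probes of a gene counted, and a limit of 4-fold gave 404 and 563. Leaving out 1 mouse gave 1077 to 1155 above and 1491 to 1553 below. The 50 most variable genes depended most on the processing. Of them, 27 remained with the lowest ratio taken as missing, 7 when ranked by the median absolute deviation, and 27 (without replicate 7) to 47 with 1 mouse left out. The median of the clock genes turned from -0.03 to 0.01 without replicate 2 and 0.04 without replicate 3, and ranged from -0.09 to 0.04 over the 7 left-out mice. Of the other list medians under alternatives, 320 were the same and 18 moved by more than the spread between mice. Of these moves, 17 came from leaving arrays uncentred and 1 from leaving out replicate 3. For single genes 5705 values kept their call, 103 lost it, 45 gained it and none reversed.

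For the doses, 2338 genes in place of 3702 were higher at 1000 cGy without centring. With 1 nonirradiated mouse left out, 219 (without replicate 3) to 359 genes were lower at 50 cGy and 533 to 766 higher. With the replicate number as a block, 666 genes were higher and 317 lower in the 50 cGy group, 2086 higher and 1815 lower in the 200 cGy group, and 3663 higher and 2336 lower in the 1000 cGy group. On average, samples of the same number did not deviate together (mean r = -0.019 over 42 pairs, against 0.00254 for other pairs). Of these 42 pairs, 10 had r over 0.1. For 4 of 28 samples the best match carried the same replicate number. Pairing of the mice by number was thus not shown, and a low mean r cannot exclude it. Where no cause is given for a change, it was not tested. Without dye swaps, intensities or reference replicates, the precision covers only the spread between 7 mice.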

Other observations

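Gene families outside the lists were counted after their values were seen. All 6 Gimap GTPases, which act in lymphocyte survival, were at least 2-fold above the reference, with means from 2.23 to 6.06. Of 22 collagen genes, 12 were below and none above, and the lowest was Col3a1 at -5.72. Of 265 olfactory receptor genes, 60 were above the reference (22.6%) and 4 below (1.51%), against 12.6% and 17.6% of all genes, with a median of 0.62. Of 23 vomeronasal receptor genes, 2 were above and 1 below. Of 5886 tested probes that carry no single gene symbol, 701 were above the reference and 777 below. Of all 16675 probes tested singly, these included, 2068 were above and 2643 below.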
